A study of Mus musculus with 6 samples.

Results

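The NuRD complex is a corepressor, a protein assembly that transcription factors bring to DNA to silence genes. The genes described here encode 10 of its subunits, Chd3, Chd4, Hdac1, Hdac2, Mta1, Mta2, Mta3, Mbd2, Mbd3 and Rbbp4. They were chosen as a fixed list because NuRD proteins are known partners of the transcription factor Bcl11a. The rule uses no measured value, although the list was drawn up with earlier results of these data known. All 10 were measured, out of 19938 genes that a probe set of the array names singly. The tissue was dissected neocortex from 6 mouse embryos of embryonic day 14.5, each hybridised to its own Affymetrix Mouse Gene ST array. The 3 control embryos were Bcl11a+/+, and the 3 mutant embryos carried the recombined floxed allele on both chromosomes (Bcl11aΔflox/Δflox). No source used here names the Cre line, the cells in which recombination took place, the deleted exon, or a further allele or agent in either group. Per the series text each sample was extracted separately, so the arrays of a group were treated as biological replicates.

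NuRD joins 2 enzyme activities that other corepressors keep apart. Chd3, Chd4 or Chd5 supplies an ATPase that slides nucleosomes, and Hdac1 and Hdac2 remove acetyl groups from histone tails. Mta proteins form the scaffold that holds the deacetylases, Rbbp4 and Rbbp7 are WD40 proteins that grip histone tails, and Mbd2 or Mbd3 links the complex to DNA, with methylated CpG recognised by Mbd2. Gatad2a and Gatad2b bridge the Mbd protein to the remodelling ATPase. Bcl11a, like several other zinc finger repressors, carries a short motif at its N-terminus that docks on Rbbp4. In the developing cortex the Chd ATPases are known to take turns in the complex, with Chd4 tied to dividing progenitors and Chd3 to later steps of neuronal migration and layering.

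The promoter of Rbbp4, the docking subunit, is shown because Rbbp4 was 1 of the 2 members whose control and mutant arrays did not overlap. It is the stretch of 250 bases before the gene's start in RefSeq (build GRCm38.p6, chr4:129335371-129335620, minus strand). Capitals mark the GC box CCGCCC, read on both strands, so that it also appears as GGGCGG.

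Rbbp4 promoter: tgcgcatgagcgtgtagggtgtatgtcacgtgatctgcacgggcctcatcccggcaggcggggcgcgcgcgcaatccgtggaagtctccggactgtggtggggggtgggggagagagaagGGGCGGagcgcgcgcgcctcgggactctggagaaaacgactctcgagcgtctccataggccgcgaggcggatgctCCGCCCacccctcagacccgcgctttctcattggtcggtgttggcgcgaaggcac

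Windows of this kind were used for 6 of the 10 members. With the 5 further NuRD subunit genes added, 11 genes had 15 windows in all. The RefSeq table used here held none for Chd3, Hdac1 and Mta3, and Mbd2 was left out because of its chromosome. This exclusion by chromosome was not applied to the windows of all genes. The GC box occurred in all 15, and in 32.7% of the 32851 windows of all genes. The NuRD windows held 12 to 39 CpG dinucleotides, with a median of 22, against a median of 6 over all windows. Of all windows, 66.5% held fewer CpG dinucleotides than any NuRD window. The share of windows with a motif was not compared at a like CpG content. TGACCA, a motif that Bcl11a is known to recognise, was searched on both strands. It occurred in none of the 15 windows, so that it overlapped no GC box there, and in 11.4% of all windows. These matches describe letters in a short window and were not set against any binding data.

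The arrays were alike in scale, with medians between 7.23 and 7.33 on the log2 scale and correlations of 0.993 to 0.997 between arrays. In the mutants Bcl11a itself fell by 0.84 (log2; limma adjusted p = 0.00201), although no source used here says whether its probes lie in the deleted exon. The 8 defining genes of the neocortex that were measured had control means between 9.94 and 12.52, and none passed the test. Blood genes differed between the groups: 6 of 9 erythroid genes rose and none fell, and the summed level of the 9 was 12.40 to 12.72 in controls and 13.56 to 13.77 in mutants. The 6 were Hbb-bh1, Hba-x, Slc4a1, Kel, Rhag and Epb42, with log2 differences from 0.55 for Epb42 to 5.02 for Hbb-bh1. The summed level of 9 meninges and pericyte genes was 10.75 to 10.89 in controls and 10.92 to 12.23 in mutants, with mutant replicate 1 highest for Dcn, at 10.49. None of these 9 genes passed. The summed level of 8 microglia and macrophage genes was 10.25 to 10.49 in controls and 10.58 to 10.73 in mutants, and none of these genes passed, with Csf1r nearest at a log2 difference of 0.29. The groups overlapped in the summed levels of 6 endothelial and 8 subpallial genes, where Tek (log2 difference 0.32) and Lhx6 (log2 difference 0.28) came nearest to passing. Differences were positive for all 9 meninges and pericyte genes, all 8 microglia and macrophage genes and all 6 endothelial genes. They were also positive for 7 of the 8 subpallial genes, against 60.3% of all genes. The embryos were not balanced by sex, as read from Xist and Y-linked genes, with 2 females and 1 male among the controls and 1 female and 2 males among the mutants. The part of these cells in the values of NuRD genes was not tested. In tissue arrays, fewer cells of a type and less RNA per cell cannot be told apart.

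None of the 10 NuRD genes passed the test between mutants and controls (limma, Benjamini-Hochberg adjusted p under 0.05 over all genes), in either direction. Over all genes, 0.286% passed, 0.246% as higher and 0.0401% as lower, so a count of 0 among 10 genes is near this background. At an unadjusted p under 0.05 the count was 1 of 10, which was Chd3, against 6.05% of all genes. Their log2 differences, mutant minus control, ran from -0.18 for Chd3 to 0.10 for Rbbp4, with 5 positive and 5 negative. Over all genes 60.3% of the differences were positive. The median of the 10 members was -0.0012, and 0.02 over all genes. The 95% intervals of all 10 differences lay within 1.25-fold either way, as did those of 82.9% of all genes, so that the NuRD genes were not particular in this.

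**Figure D1:**
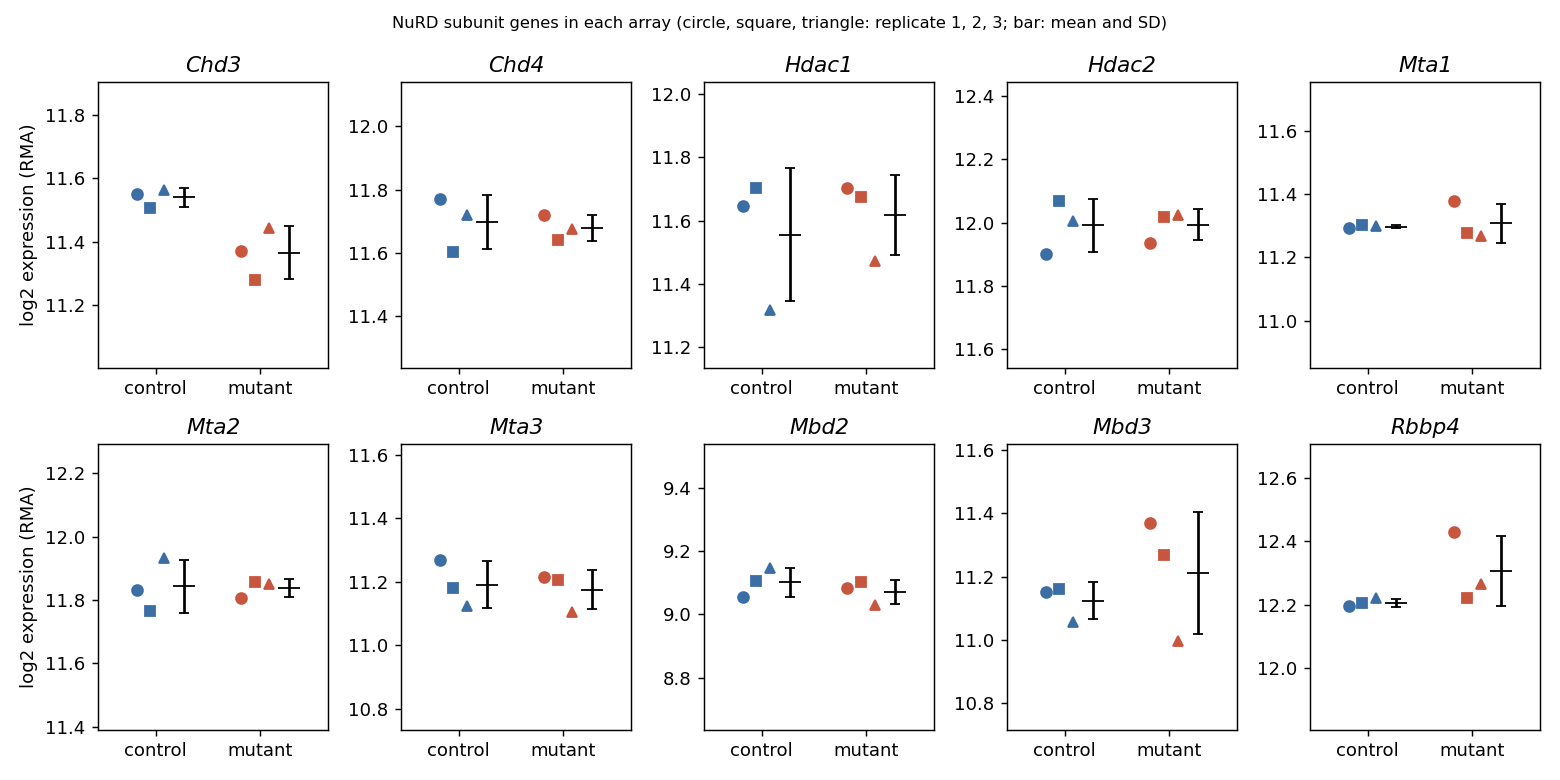
Log2 expression (RMA) of the 10 NuRD genes in each array, with blue for controls, red for mutants, a marker shape for each replicate number, and bars for the mean and SD of 3 arrays. Every panel spans the same range, and the groups separate for Chd3 and, by a margin of 0.0011, for Rbbp4.

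Chd3 (Entrez 216848), an ATPase of the complex, gave the largest difference. It read 11.55, 11.51 and 11.56 in control replicates 1, 2 and 3, and 11.37, 11.28 and 11.44 in mutant replicates 1, 2 and 3. All 3 mutants were below all 3 controls, with a gap of 0.06 between the nearest arrays. Controls averaged 11.54 ± 0.03 and mutants 11.37 ± 0.08 (SD over 3 arrays), so that the log2 difference was -0.18 ± 0.06 (SE), or 1.13-fold, with a limma adjusted p of 0.631. The 95% interval, which is not adjusted for the number of genes, was -0.32 to -0.03. The difference kept its sign in each fit that left out 1 array, from -0.21 to -0.13. Groups that did not overlap, with the mutants lower, were found for 2.85% of all genes.

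Chd4 (Entrez 107932), the ATPase tied to cortical progenitors, read 11.77, 11.60 and 11.72 in controls and 11.72, 11.64 and 11.68 in mutants, in replicate order. The mutants lay inside the range of the controls. Its difference was -0.02 ± 0.07 (SE), with a 95% interval of -0.17 to 0.13. Chd5 (Entrez 269610), the neuronal ATPase of the family, was not on the list of members. It read 8.42, 8.34 and 8.66 in controls and 8.42, 8.53 and 8.78 in mutants, with a difference of 0.10 ± 0.11 (SE). Its groups overlapped, and the replicate numbered 3 was highest in both.

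Since Chd3 and Chd4 take turns as the ATPase of NuRD, their log2 difference was taken within each array. It was -0.22, -0.10 and -0.16 in controls and -0.35, -0.36 and -0.23 in mutants, in replicate order. Chd3 was thus lower relative to Chd4 in every mutant than in any control, on the log2 scale of their own probe sets. The shift was -0.16 ± 0.05 (SE; 95% interval -0.31 to -0.01). This interval is not adjusted for the 7 pairs. An exact permutation test (two-sided) gave p = 0.1, the lowest value possible with 3 arrays a group, and 0.7 after Benjamini-Hochberg adjustment over 7 pairs. No pair could pass 0.05 in this test, so it could not decide whether the 2 ATPase genes responded differently. Cell type markers are given beside this, since these ATPases are known to differ between progenitors and neurons. The summed level of 11 progenitor genes was 15.31 to 15.39 in controls and 15.33 to 15.35 in mutants, and that of 8 neuron genes 15.25 to 15.29 and 15.24 to 15.31. None of these genes passed, and the nearest were Eomes, of intermediate progenitors, with a log2 difference of 0.21, and Snap25, a synaptic protein gene, with -0.20. Both differed in direction from most genes of their lists. Of the 11 progenitor genes, 4 had positive and 7 negative differences, with a median of -0.02. Of the 8 neuron genes, 6 had positive and 2 negative differences, with a median of 0.04. The share of positive differences over all genes was 60.3%. The part of cell makeup in the Chd3 values was not tested.

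Hdac1 (Entrez 433759) and Hdac2 (Entrez 15182) encode the paired deacetylases. Hdac1 read 11.65, 11.70 and 11.32 in controls and 11.70, 11.67 and 11.47 in mutants. The replicate numbered 3 was lowest in both groups, and the groups overlapped. Its difference was 0.06 ± 0.11 (SE; 95% interval -0.19 to 0.31), the widest interval among the members, and it was -0.06 without control replicate 3. A second probe set named Hdac1 gave the same order, with 11.57, 11.67 and 11.26 in controls and 11.64, 11.62 and 11.40 in mutants. Hdac2 varied less, with 11.90, 12.07 and 12.01 in controls and 11.94, 12.02 and 12.02 in mutants. The mutants lay inside the range of the controls, and the difference was 0.0020 ± 0.07 (SE; 95% interval -0.15 to 0.15). Within arrays, the shift of Hdac1 relative to Hdac2 was 0.06, with a 95% interval of -0.39 to 0.50 (exact permutation p = 0.6).

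The 3 scaffold genes gave small differences. Mta1 (Entrez 116870) read 11.29, 11.30 and 11.30 in controls and 11.38, 11.28 and 11.27 in mutants. Mta2 (Entrez 23942) read 11.83, 11.77 and 11.93 in controls and 11.81, 11.86 and 11.85 in mutants. Mta3 (Entrez 116871) read 11.27, 11.18 and 11.12 in controls and 11.21, 11.21 and 11.11 in mutants. In each of these genes the groups overlapped, and the differences were 0.01, -0.0045 and -0.02, each with an SE of 0.06 to 0.07. Their 95% intervals together covered -0.17 to 0.15. A second probe set named Mta3, with means of 7.15 ± 0.01 for controls and 7.24 ± 0.16 for mutants (SD over 3 arrays), differed by 0.10 ± 0.08 (SE). In the 3 comparisons between Mta genes within arrays, shifts ran from 0.01 to 0.03 (exact permutation p of 0.7 to 0.9). For Mta1 against Mta3 the 95% interval was -0.12 to 0.18, for Mta1 against Mta2 it was -0.18 to 0.21, and for Mta2 against Mta3 -0.24 to 0.26.

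Mbd2 and Mbd3 form separate kinds of NuRD, since a complex holds one or the other. Mbd2 (Entrez 17191) read 9.05, 9.10 and 9.15 in controls and 9.08, 9.10 and 9.03 in mutants, with a difference of -0.03 ± 0.06 (SE; 95% interval -0.16 to 0.10). Mbd3 (Entrez 17192) read 11.15, 11.16 and 11.06 in controls and 11.37, 11.27 and 11.00 in mutants. Mutant replicates 1 and 2 were above all controls and mutant replicate 3 was below them. The difference was 0.09 ± 0.10 (SE; 95% interval -0.13 to 0.31), and it was 0.0086 without mutant replicate 1 and 0.19 without mutant replicate 3. Relative to Mbd3, Mbd2 shifted by -0.12 in the mutants, with a 95% interval of -0.42 to 0.18 (exact permutation p = 0.4). The shift was -0.04 without mutant replicate 1 and -0.20 without mutant replicate 3.

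Rbbp4 (Entrez 19646), whose promoter is printed above, read 12.20, 12.20 and 12.22 in controls and 12.43, 12.22 and 12.27 in mutants. The mutants lay above the controls, but the lowest mutant and the highest control were 0.0011 apart. Controls averaged 12.21 ± 0.01 and mutants 12.31 ± 0.11 (SD over 3 arrays), a difference of 0.10 ± 0.07 (SE; 95% interval -0.06 to 0.26). Mutant replicate 1 decided most of its size, and without that array the difference was 0.04. Groups that did not overlap, with the mutants higher, were found for 7.69% of all genes, and in either direction for 10.5%, against 2 of the 10 members. Rbbp7 (Entrez 245688), its close paralog, read 11.00, 10.96 and 11.03 in controls and 11.13, 10.96 and 11.08 in mutants, with overlapping groups and a difference of 0.05 ± 0.06 (SE). Within arrays, Rbbp4 shifted relative to Rbbp7 by 0.04, with a 95% interval of -0.06 to 0.15 (exact permutation p = 0.4). This shift was 0.02 without mutant replicate 1 and 0.08 without mutant replicate 3.

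**Figure D2:**
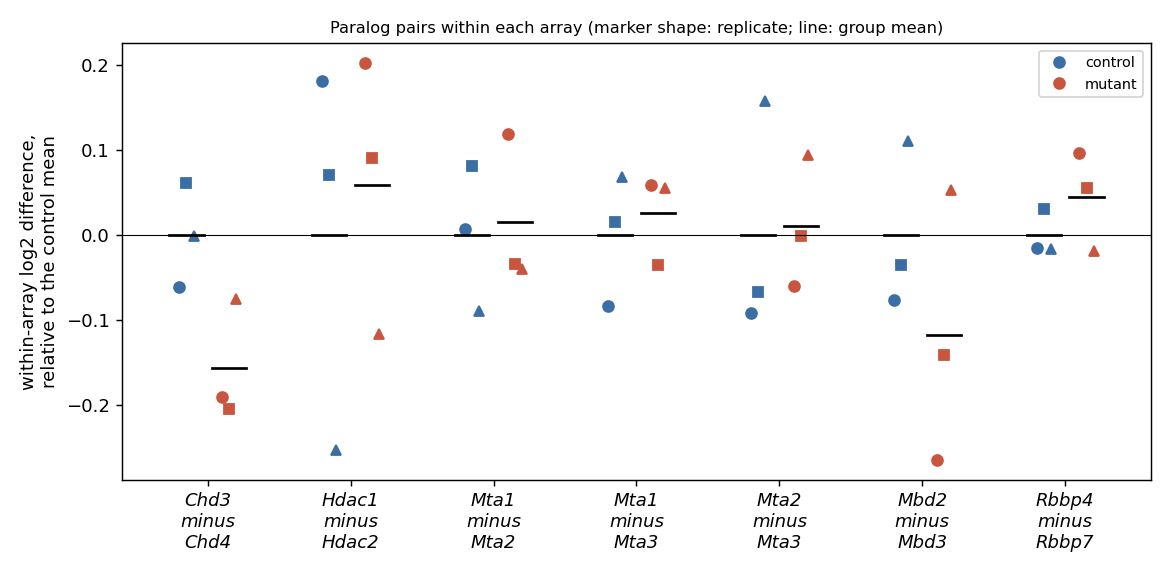
Within-array log2 difference of each of the 7 paralog pairs, shown relative to its control mean, with a point for each array, a marker shape for each replicate number and a line for the group mean. The groups separate for Chd3 minus Chd4, where the mutant mean lies 0.16 lower, and overlap in the other 6 pairs.

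The further subunit genes did not pass either. Gatad2a (Entrez 234366), a bridge between the Mbd protein and the ATPase, averaged 10.44 ± 0.08 over the controls and 10.47 ± 0.05 over the mutants (SD over 3 arrays). Gatad2b (Entrez 229542), its paralog, was at 12.37 ± 0.06 and 12.34 ± 0.07. Cdk2ap1 (Entrez 13445), a small accessory subunit, was at 12.94 ± 0.10 and 12.98 ± 0.10. With Chd5 and Rbbp7, 4 of these 5 genes had positive differences, against 60.3% of all genes. The list median was 0.04, and the groups of each gene overlapped.

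**Figure D3:**
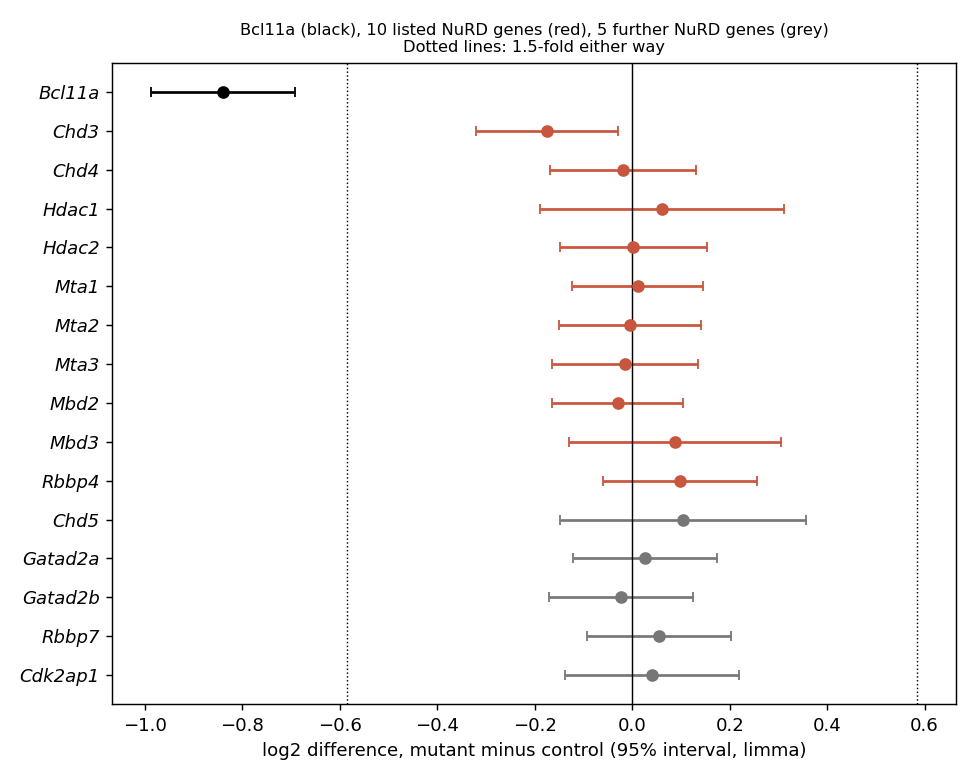
Log2 difference, mutant minus control, with 95% limma intervals, for Bcl11a, the 10 NuRD genes and the 5 further subunit genes. Bcl11a lies at -0.84, and the intervals of all 15 NuRD genes lie between -0.32 and 0.36, inside the dotted lines at 1.5-fold.

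The precision sets what these data could have shown. Residual SDs of 8 of the 10 members were below the median of all genes, 0.09, with Hdac1 at 0.17 and Mbd3 at 0.14 above it. To pass the threshold, given the largest p that passed in this fit, a member would have needed a log2 difference of 0.38 for Mbd2 to 0.71 for Hdac1, with a median of 0.43. The difference of Chd3 was below the 0.42 that its own error would have required.

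Lists of other corepressors and chromatin genes were set beside NuRD in the same fit. Of 10 zinc finger factors known to bind NuRD, Bcl11a alone passed, and the list median was -0.02. Bcl11b and Zfp827, named after their values were seen, were the other two whose groups did not overlap, as in 10.5% of all genes. Their log2 differences were 0.29 ± 0.07 and 0.16 ± 0.07 (SE), with limma adjusted p of 0.219 and 0.771. None passed among 12 Sin3, 9 CoREST, 4 NCoR and SMRT and 9 Polycomb repressive complex 2 genes. The gene nearest to passing in each list was Brms1l, a Sin3 subunit gene, with a log2 difference of 0.15, Kdm1a, the histone demethylase of CoREST, with 0.07, Hdac3, the deacetylase of NCoR, with -0.11, and Eed, a Polycomb subunit gene, with -0.20. The list medians were 0.03, -0.02, 0.01 and 0.03.

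None passed among 10 other deacetylases, 7 methyl-CpG readers and DNA methyltransferases, and 6 other CHD remodellers. Hdac9, a class IIa deacetylase, came nearest. It read 9.47, 9.81 and 9.61 in controls and averaged 10.01 ± 0.01 over the mutants (SD over 3 arrays), a difference of 0.38 ± 0.09 (SE, limma adjusted p = 0.186), with all mutants above all controls. In this list 2 of 10 genes had all mutants above all controls, against 7.69% of all genes. The list medians were 0.06 for the deacetylases, -0.03 for the methyl-CpG list, and 0.0016 for the CHD list. The genes nearest to passing in the latter lists were the DNA methyltransferase gene Dnmt3a, with a log2 difference of -0.08, and Chd8, with 0.08.

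**Figure D4:**
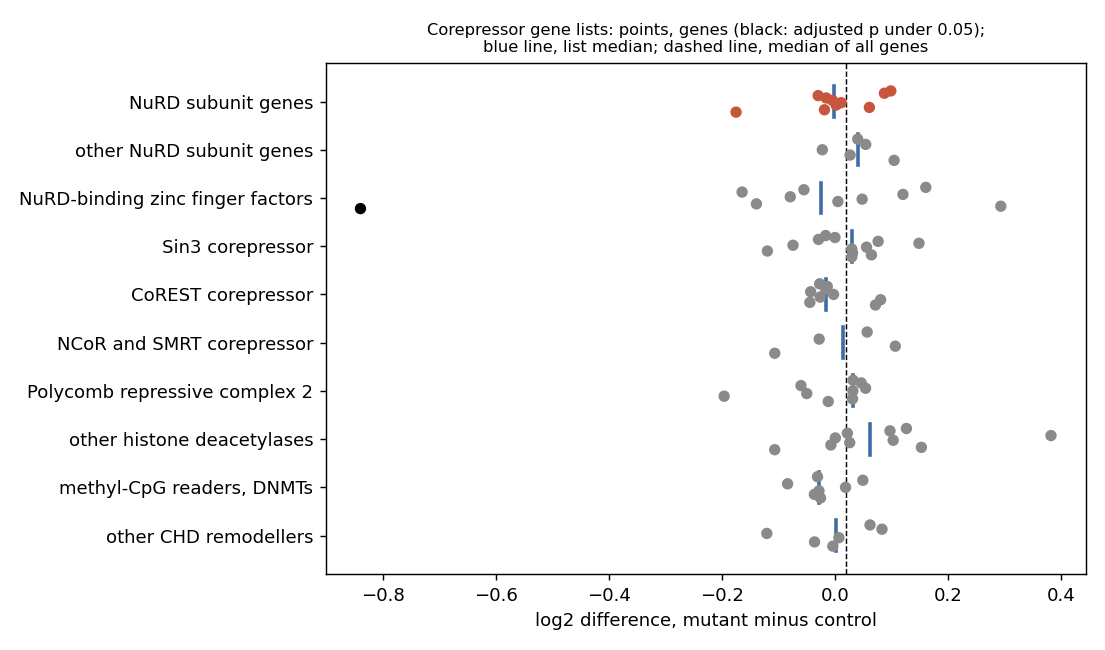
Log2 difference, mutant minus control, of each measured gene in the NuRD list (red) and 9 other lists, with black for genes past the threshold, a blue line for the list median and a dashed line for the median of all genes, 0.02. Bcl11a, at -0.84, is the 1 gene past the threshold, and list medians lie between -0.03 and 0.06.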

How the data were processed

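The submitters' processing notes name Affymetrix Expression Console and RMA. The authors' deposited values were read as log2 expression, as RMA gives it, with each array between 3.41 and 13.8. RMA compresses differences near background, and quantile normalization hides a shift shared by most genes. The array's genome build was not given in the sources used here. GEO's platform annotation named 21789 of 35556 probe sets with 1 symbol, 1621 with several and 12146 with none. Of the former, 21698 matched RefSeq (GRCm38.p6, used for names and promoters), with 0 symbols updated. A gene was represented by its probe set of highest mean, so Hdac1, Mta3, Rbbp7 and Cdk2ap1 each had another. Levels of different genes were not ranked.

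Groups came from the sample titles. The comparison of mutants with controls used limma 3.58.1 (R 4.3.3; lmFit, eBayes, no covariate) over 19938 genes, and was checked on simulated data. Intervals of paralog shifts use the SD pooled over both groups. The number of arrays limits the precision. Members and lists were chosen with earlier results of these data known. Named were the 10 members, Bcl11a, 5 further subunit genes and, per list, genes past the threshold or else the 1 with the smallest p; Bcl11b and Zfp827 fall outside this rule. Alternatives were another normalization, array weights, sex, the replicate number, a filter on dim genes, other probe set rules and leaving out each array. Some listed genes outside the members are not reported here.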

Additional observations from a re-analysis of the deposited data

How the results depend on the processing

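No NuRD gene passed in any of the 13 alternative fits, at an adjusted p under 0.1 or with all probe sets counted singly, and in each of these 13 fits Bcl11a passed as the 1 called gene of its list. Chd3 kept its sign in all 13, from -0.21 to -0.13, with adjusted p from 0.235 (array weights) to 1, as did Mbd2, Mbd3, Rbbp4 and the shifts of Chd3, Mbd2 and Rbbp4 against their paralogs. Other members, all within their errors of 0, changed sign in 21 of 130 fits of members, and the cause was not tested. These counts include fits that could not turn a sign. The replicate block and the filter on dim genes leave a difference as it was. So does the median of probe sets for a gene without a second probe set. Median centring leaves every paralog shift as it was. With array weights Chd4 was at 0.025, Hdac1 at -0.023, Hdac2 at -0.032, Mta1 at -0.0069 and Mta2 at 0.054, and Mta1 was at -0.061 against Mta2 and -0.0037 against Mta3. With sex as a covariate Hdac2 was at -0.011, Mta2 at 0.020 and Mta1 against Mta2 at -0.017. With quantile normalization Mta2 was at 0.0092 and Mta1 against Mta2 at -0.0072, and with median centring Mta2 was at 0.0037. With the median of probe sets Mta3 was at 0.041, and Mta1 and Mta2 were at -0.030 and -0.045 against it. Leaving out 1 array gave ranges of -0.066 to 0.018 for Chd4, -0.058 to 0.13 for Hdac1, -0.043 to 0.040 for Hdac2, -0.025 to 0.032 for Mta1, -0.043 to 0.040 for Mta2 and -0.049 to 0.024 for Mta3. For pairs it gave -0.20 to -0.044 (Mbd2 against Mbd3), 0.018 to 0.076 (Rbbp4 against Rbbp7), -0.067 to 0.15 (Hdac1 against Hdac2), -0.037 to 0.056 (Mta1 against Mta2), -0.015 to 0.061 (Mta1 against Mta3) and -0.034 to 0.090 (Mta2 against Mta3). For list medians it gave -0.0080 to 0.013 (the 10 members), 0.018 to 0.067 (further NuRD subunits), -0.067 to 0.032 (zinc finger factors), 0.0079 to 0.039 (Sin3), -0.039 to -0.0041 (CoREST), -0.053 to 0.022 (methyl-CpG), -0.030 to 0.056 (CHD), 0.033 to 0.086 (deacetylases), -0.043 to 0.061 (NCoR) and -0.0070 to 0.039 (Polycomb). Over all genes, 57 passed, and 24 with sex, 217 with array weights and 20 to 50 without 1 array. In the fit with a replicate block 34 passed, Chd3 had an adjusted p of 0.531, and no call of a NuRD gene changed. Deviations from the group means correlated at 0.03, -0.14 and 0.08 between arrays of the same number, so the numbers were not taken to pair the samples.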
